A study of Mus musculus and Homo sapiens with 17 samples.

Results

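The genes described here are 10 members of 2 linked families, the matrix metalloproteinases (MMPs) and their tissue inhibitors (TIMPs). They were chosen by name: Mmp1a, Mmp2, Mmp3, Mmp7, Mmp9, Mmp10, Mmp13, Mmp14, Timp1 and Timp3 in mouse, and the human genes MMP1, MMP2, MMP3, MMP7, MMP9, MMP10, MMP13, MMP14, TIMP1 and TIMP3 in A431 cells. All 10 names were found in each table, among 54532 named features in mouse and 58735 in A431. After a filter on low counts 9 of the 10 could be tested in each species, since Mmp7 in mouse and MMP3 in A431 did not pass it.

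The study asked what loss of DUSP1, a phosphatase that switches off MAP kinases, changes in a skin cancer, squamous cell carcinoma (SCC). RNA was sequenced from 17 libraries. The mouse libraries came from C57BL/6-129 animals that all received DMBA, a carcinogen, and TPA, a tumour promoter. They were 2 libraries of SCC labelled Dusp1 knockout (KO SCC), 3 of papilloma labelled knockout (KO papilloma), 3 of wild-type SCC (WT SCC) and 3 of wild-type skin (WT skin). No library of WT papilloma or of KO skin was analysed here, so lesion and genotype cannot be told apart where KO lesions are set against WT skin or where KO papilloma is set against WT SCC. The A431 libraries came from an established human line of squamous carcinoma cells grown as xenografts. In each arm 100000 cells were placed in the skin of host mice and recovered after 3 weeks, with mouse cells depleted. The 3 A431 KO libraries carried a guide RNA against DUSP1 and the 3 A431 control libraries one named Tomato. The descriptions of the A431 KO libraries all carry the code CL2, and 2 of them the same longer code. How they relate is not stated in the labels, and the spread among these libraries may be technical.

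MMPs are zinc-dependent proteases that cut collagens, laminins, fibronectin and other proteins outside the cell. Most are secreted as inactive precursors and are opened by other proteases, and TIMPs block the open enzymes by binding the catalytic site. In skin, wounding and tumour growth are known to involve collagenases (MMP1, MMP13), stromelysins (MMP3, MMP10), gelatinases (MMP2, MMP9) and the membrane-bound MMP14, which activates MMP2. Many MMP genes are known to respond to MAP kinases through AP-1, a dimer of Fos and Jun proteins.

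Labels and libraries were checked first. Dusp1 RNA had 139 and 174 CPM (counts per M counts of the library, with TMM scaling) in KO SCC, 129, 109 and 109.6 in KO papilloma, 73.3, 83.7 and 66.6 in WT SCC, and 94.1, 109 and 52.4 in WT skin. The transcript was thus not lower in the mouse libraries labelled KO, and which part of the gene was altered is not stated in the labels. In edgeR's quasi-likelihood test Dusp1 was higher in KO SCC than in WT SCC (log2 fold change 1.07 ± 0.25, SE, adjusted p = 0.0284). It was also higher in KO SCC than in WT skin (0.88 ± 0.25, adjusted p = 0.0153). DUSP1 in A431 had 73.6, 71.0 and 77.1 CPM in KO against 471, 467 and 485 CPM in control libraries, in the direction of the labels. The labels call the mouse cells keratinocytes, but whole frozen sections were used. Keratinocyte markers (8 genes) summed to 40415 to 66146 CPM in the lesions and 8794 to 16476 CPM in WT skin. Fibroblast markers (9 genes, none at 0) summed to 1293 to 3703 CPM in the lesions and to 26589, 14583 and 4175 CPM in WT skin replicates 1, 2 and 3. Skeletal muscle markers reached 4997 to 5988 CPM in WT skin and at most 105 CPM in any lesion. Fewer cells of a type and less RNA per cell cannot be told apart in such samples. KO SCC replicate 2 stood apart, with 4779 counts over 4 genes of the Y chromosome against 0 in KO SCC replicate 1, all KO papilloma and all WT SCC libraries, and with 944 CPM of Ltf, the secreted protein lactoferrin, against 2.14 CPM in KO SCC replicate 1. Ltf made up most of the 987 CPM of neutrophil markers in that library, and Csf3r and Cxcr2, 2 other neutrophil markers, were alike in the 2 KO SCC libraries, at 11.7 to 12.6 and 22.9 to 27.2 CPM. Among WT skin libraries the same Y genes had 6624, 9552 and 7 counts. Xist, an RNA of the X chromosome, had 0.0745, 0.705 and 382 CPM there. It had 15.3 CPM in KO SCC replicate 2 and 203 to 497 CPM in the other lesion libraries. WT skin and the lesions thus differed in these genes too, and the part of this in the comparisons with WT skin was not tested. Results that use KO SCC are given with and without KO SCC replicate 2 where the call turns on it.

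Of the mouse members 5 lie in 1 cluster on chromosome 9, in a span of 427.072 kb (GRCm38, chr9:7272514-7699585) that holds 10 MMP genes. In order along the forward strand they are Mmp13, Mmp3, Mmp1a, Mmp10 and Mmp7. Mmp1a is classed as a polymorphic pseudogene in the GENCODE M21 annotation, unlike the other members, which are classed as protein-coding. Timp1, on the X chromosome, lies within Syn1 and Timp3, on chromosome 10, within Syn3, each on the opposite strand, and these hosts had 1 to 22 and 3 to 60 counts per mouse library, far below the members. Mmp3 and Mmp10 share 8.39% and 8.37% of their exonic 50-base words with other genes, each with the other, and Mmp1a shares 8.15% with Mmp1b, so a small part of their reads could be split or misplaced by the counting, whose rule is not given.

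The promoters of the cluster are shown because these genes share a short motif just before their start. Each line gives the 110 bases before the start in RefSeq (GRCm38.p6, forward strand). Capitals mark 3 motifs: TGANTCA, the binding motif of AP-1, AGGAAG or its reverse complement, the core of PEA3/ETS factor sites, and TATAAA, the TATA box. Timp1 is shown as a contrast from outside the cluster.
Mmp13 (chr9:7272404-7272513): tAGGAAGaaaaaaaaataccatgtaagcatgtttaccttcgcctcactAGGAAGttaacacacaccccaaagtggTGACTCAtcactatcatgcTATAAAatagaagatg
Mmp3 (chr9:7445712-7445821): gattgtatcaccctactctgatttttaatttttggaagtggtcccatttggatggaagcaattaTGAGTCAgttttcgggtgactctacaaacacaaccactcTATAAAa
Mmp1a (chr9:7464031-7464140): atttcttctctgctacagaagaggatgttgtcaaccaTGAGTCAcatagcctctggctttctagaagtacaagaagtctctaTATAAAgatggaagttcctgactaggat
Mmp10 (chr9:7502232-7502341): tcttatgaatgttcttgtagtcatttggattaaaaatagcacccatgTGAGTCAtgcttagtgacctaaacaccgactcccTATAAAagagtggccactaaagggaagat
Mmp7 (chr9:7691980-7692089): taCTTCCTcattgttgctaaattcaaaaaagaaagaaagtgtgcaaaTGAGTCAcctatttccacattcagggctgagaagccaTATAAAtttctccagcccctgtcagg
Timp1 (chrX:20870056-20870165): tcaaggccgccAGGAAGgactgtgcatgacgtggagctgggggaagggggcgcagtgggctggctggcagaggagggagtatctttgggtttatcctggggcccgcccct

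All 5 members in the cluster carried TGANTCA, with its first base 35 to 73 bases before the start, and none of Mmp14, Timp1 and Timp3 held it in the 250 bases before the start. The motif, searched on both strands, stood in 6.75% of 32851 promoter windows of that length. TATAAA was likewise in the 5 cluster members, against 7.59% of the windows on the forward strand, and AGGAAG was in 29.5% of the windows on both strands. Mmp7 has a second entry further on, which held AGGAAG but neither TGANTCA nor TATAAA in the 250 bases before its start. Mmp2 (chromosome 8) and Mmp9 (chromosome 2) had no entry, and Mmp14 lies on chromosome 14. The matches describe the letters of the promoters, not the binding of any factor.

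**Figure D1:**
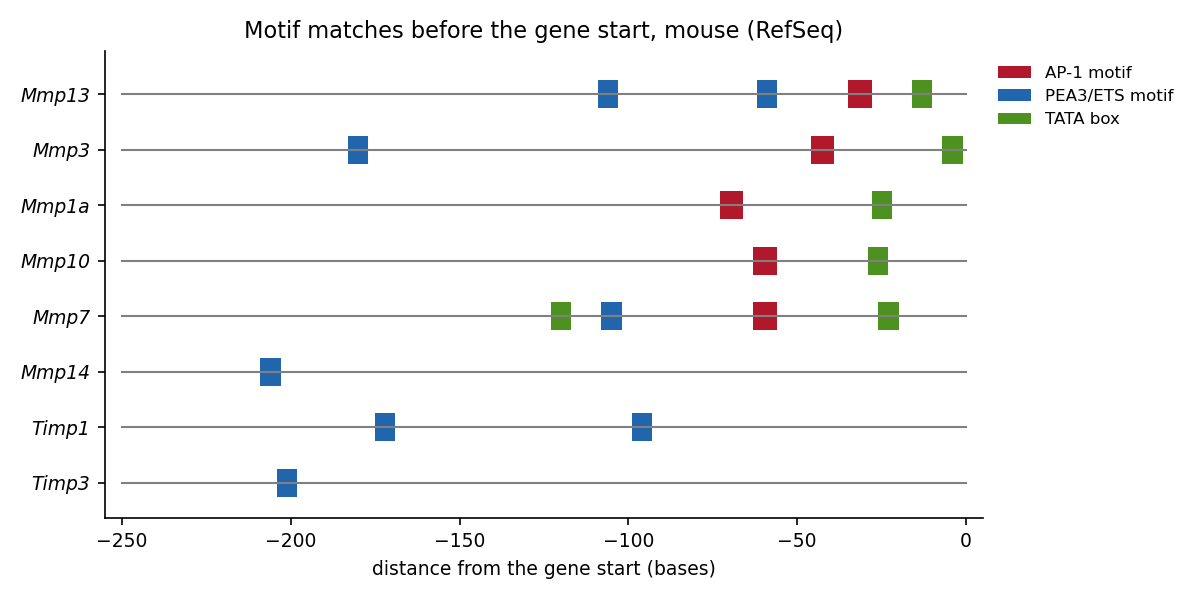
Matches to the AP-1, PEA3/ETS and TATA box motifs in the 250 bases before the gene start of 8 mouse members, with distance from the start in bases on the x axis and 1 line per gene. The 5 genes of the chromosome 9 cluster, at the top, hold an AP-1 match within 73 bases of the start, and the 3 genes below hold none.

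The levels of the mouse members can be compared with each other only per length, as mean CPM per kb of exon. On this scale Mmp2 was the highest in each group, with 20.8 in KO SCC, 33.1 in KO papilloma, 32.8 in WT SCC and 158 in WT skin. In KO SCC it was followed by Mmp13 at 20.7, Timp1 at 16.4, Mmp14 at 14.3, Mmp3 at 9.78 and Mmp10 at 9.49. Mmp2 and Mmp13 there differed by far less than their SDs of 7.02 and 5.59 (n = 2). In KO papilloma and WT SCC the next were Timp1 at 21.2 and 29.3 and Mmp14 at 20.9 and 24.3, where the SDs of Mmp2 were 11.8 and 7.66 (n = 3 each). Mmp2 was not the highest in every lesion library. It was below Mmp13 in KO SCC replicate 1 (15.9 against 16.8) and in WT SCC replicate 1 (26.0 against 33.2). In KO papilloma replicate 3 it was below Mmp14 (19.4 against 21.7). In WT skin Mmp3 was next to Mmp2 at 64.2, followed by Mmp14 at 45.4, Timp1 at 13.3 and Timp3 at 8.45, and Mmp13 and Mmp10 were near the bottom at 2.25 and 0.670. The SDs of Mmp2 (94.0), Mmp3 (48.5) and Mmp14 (20.7) in WT skin were large. Mmp2 was still the highest in each skin library, at 254, 154 and 66.0. Mmp3 was above Mmp14 in replicates 1 and 2 and below it in replicate 3 (21.6 against 25.0).

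**Figure D2:**
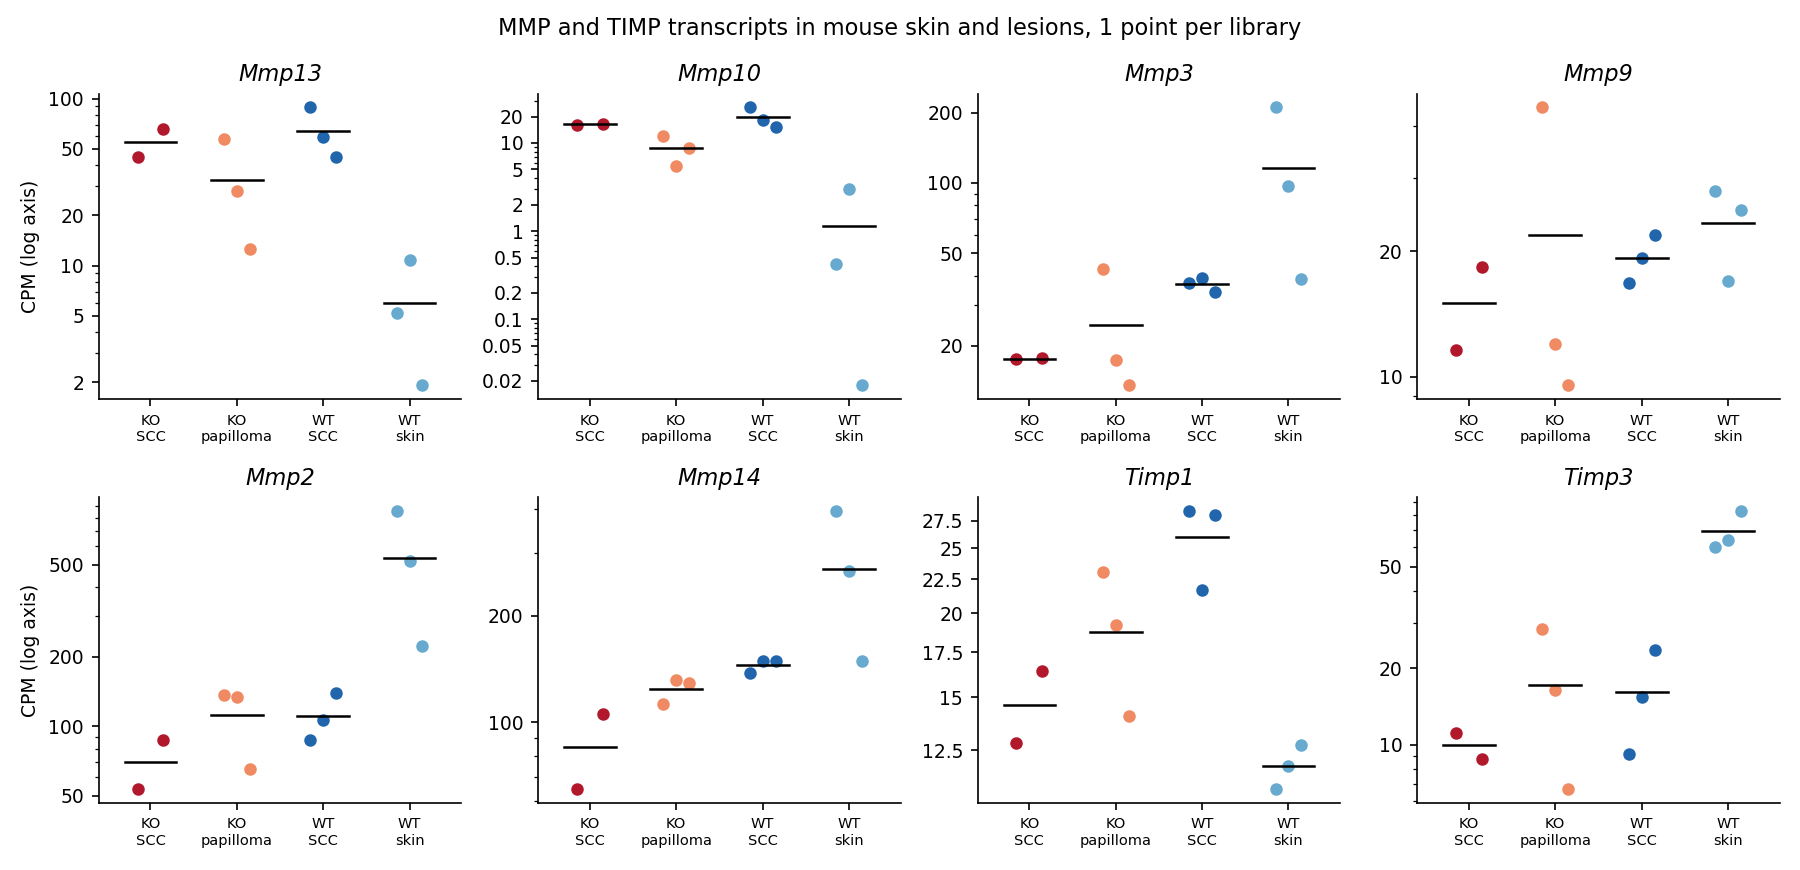
CPM (log axis) of 8 members in the 11 mouse libraries, with 1 point per library, a bar at the arithmetic mean, and groups in the order KO SCC, KO papilloma, WT SCC and WT skin. Mmp13 and Mmp10 are above WT skin in every lesion library, Mmp2 and Timp3 are below it in every lesion library, and WT skin is widely spread for Mmp2, Mmp3 and Mmp14.

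The collagenase Mmp13 and the stromelysin Mmp10 were higher in every lesion group than in WT skin. Mmp13 had 44.8 and 66.0 CPM in KO SCC, 57.4, 27.9 and 12.6 CPM in KO papilloma, 88.7, 59.3 and 44.7 CPM in WT SCC, and 5.21, 10.9 and 1.92 CPM in WT skin. The lowest lesion library, a KO papilloma, was just above the highest WT skin library. The log2 fold change against WT skin was 3.21 ± 0.67 (SE) in KO SCC, 2.44 ± 0.62 in KO papilloma and 3.42 ± 0.65 in WT SCC, with adjusted p = 0.00283, 0.00982 and 0.00189 in edgeR's quasi-likelihood test with Benjamini-Hochberg adjustment over all genes. All adjusted p-values below are from this test unless another is named. In WT SCC this is 10.7-fold. Without WT skin replicate 2, the highest skin library, the 3 differences were 3.95, 3.20 and 4.18.

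Mmp10, which cuts a broad range of matrix proteins and is known from keratinocytes at wound edges, had 16.1 and 16.5 CPM in KO SCC, 12.04, 5.50 and 8.70 CPM in KO papilloma, 25.4, 18.04 and 15.3 CPM in WT SCC, and 0.422, 3.02 and 0.0176 CPM in WT skin. No lesion library overlapped the skin libraries. Against WT skin the log2 fold change was 3.82 ± 0.97 in KO SCC (adjusted p = 0.00821), 2.92 ± 0.90 in KO papilloma (adjusted p = 0.0250) and 4.08 ± 0.94 in WT SCC (adjusted p = 0.00567). WT skin replicate 2 held most of the skin signal, and without it the values were 6.31, 5.43 and 6.59. The KO papilloma call was lost without WT skin replicate 1 (adjusted p = 0.0623) or without KO papilloma replicate 1 (adjusted p = 0.0675), and the calls of both KO groups were lost in a fit of the 2 groups alone (adjusted p = 0.0606 and 0.0860).

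Against WT skin, 6 of the 9 tested members passed the threshold in KO SCC, 8 in KO papilloma and 7 in WT SCC. Over all 22371 genes tested, 44.8%, 39.6% and 40.5% passed in these comparisons, so that many calls among the members are set against a high background. These 3 comparisons share the WT skin libraries. Without KO SCC replicate 2, the library with Y chromosome counts, all 6 KO SCC calls were kept, with the 1 remaining KO SCC library assumed to vary like the other groups. Of the members, 2, 4 and 3 were higher, against 20.5%, 17.1% and 16.9% of all genes, and 4 in each were lower, against 24.3%, 22.4% and 23.6%. Mmp13 and Mmp10 lay near the top of all genes: in WT SCC, 99.4% and 99.7% of tested genes had a lower log2 fold change.

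Mmp2, Mmp3, Mmp14 and Timp3 were lower in all 3 lesion groups. Mmp2, a gelatinase made chiefly by stromal cells, had 53.5 and 86.9 CPM in KO SCC, 136, 133 and 65.6 CPM in KO papilloma, 87.5, 106 and 139 CPM in WT SCC, and 856, 519 and 223 CPM in WT skin. Every lesion library was below every skin library, and skin replicate 3 was the nearest to the lesions. On the log2 scale the fold change was -2.92 ± 0.54 in KO SCC, -2.25 ± 0.45 in KO papilloma and -2.27 ± 0.45 in WT SCC, with adjusted p = 0.00136, 0.00246 and 0.00247, and the call held in every alternative run.

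Mmp14, the membrane-bound activator of Mmp2, had 64.8 and 105 CPM in KO SCC, 112, 132 and 129 CPM in KO papilloma, 138, 149 and 149 CPM in WT SCC, and 396, 267 and 149 CPM in WT skin. Skin replicate 3 differed from the highest lesion libraries by less than 1 CPM. Its log2 fold change was -1.67 ± 0.35 in KO SCC (adjusted p = 0.00257), -1.12 ± 0.29 in KO papilloma (adjusted p = 0.0112) and -0.90 ± 0.29 in WT SCC (adjusted p = 0.0303). The WT SCC call was lost without any of 5 of the 6 libraries, with adjusted p up to 0.129 without WT skin replicate 1, where the log2 difference was -0.52. It was also lost in a fit of the 2 groups alone (adjusted p = 0.0517).

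Mmp3, a stromelysin known mainly from fibroblasts, had 17.5 and 17.7 CPM in KO SCC, 42.5, 17.4 and 13.5 CPM in KO papilloma, 37.2, 39.1 and 33.9 CPM in WT SCC, and 211, 97.4 and 38.9 CPM in WT skin. Skin replicate 3 lay within the range of the KO papilloma and WT SCC libraries. The log2 fold change was -2.71 ± 0.65 in KO SCC (adjusted p = 0.00616), -2.24 ± 0.55 in KO papilloma (adjusted p = 0.00768) and -1.66 ± 0.53 in WT SCC (adjusted p = 0.0294). Without WT skin replicate 1 the difference in WT SCC was -0.89 (adjusted p = 0.153), and that call was also lost without any 1 of the 3 WT SCC libraries (adjusted p = 0.0729 to 0.0797). In KO SCC the call was lost without KO SCC replicate 1 (adjusted p = 0.0561).

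Timp3, an inhibitor that stays bound to the matrix, had 11.2 and 8.77 CPM in KO SCC, 28.5, 16.4 and 6.71 CPM in KO papilloma, 9.23, 15.4 and 23.6 CPM in WT SCC, and 59.9, 63.7 and 82.8 CPM in WT skin. Every lesion library was below every skin library, the lesion groups overlapped each other, and the skin libraries were closer to each other than for Mmp2 or Mmp3. Relative to WT skin the log2 fold change was -2.79 ± 0.55 in KO SCC (adjusted p = 0.00197), -1.999 ± 0.45 in KO papilloma (adjusted p = 0.00521) and -2.10 ± 0.46 in WT SCC (adjusted p = 0.00413).

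The fibroblast markers, like Mmp2, Mmp3 and Mmp14, were lower in the lesion groups than in WT skin. Of 9 tested fibroblast markers, 8 were lower in each lesion group than in WT skin, with a median log2 fold change of -2.57 in KO SCC, -1.49 in KO papilloma and -1.54 in WT SCC. The median over all genes was -0.30, -0.22 and -0.16. In WT skin the marker sum and the 3 genes had the same order, replicate 1 above 2 above 3, while Timp3 had the opposite order, highest in replicate 3. Within the lesion groups the order was not always shared. In WT SCC replicates 1, 2 and 3 the sum was 2240, 2465 and 3330 CPM. Mmp2 had the same order there, but Mmp3 had 37.2, 39.1 and 33.9 CPM. In KO papilloma the sum was 3576, 3703 and 1805 CPM and Mmp14 had 112, 132 and 129 CPM. Markers of several other cell types were lower in the lesions as well. In KO SCC, KO papilloma and WT SCC these were 8, 8 and 8 of 9 macrophage markers, 6, 5 and 5 of 6 T cell markers, 5, 4 and 5 of 5 mast cell markers and all 5 tested skeletal muscle markers in each. Of 6 endothelial markers 3 were lower in each, and 1 was higher in WT SCC. Of 7 tested neutrophil markers 2 were higher in each, and 1 was lower in WT SCC. Keratinocyte markers were higher, at 7, 7 and 8 of 8. Over all genes 24.3%, 22.4% and 23.6% were lower and 20.5%, 17.1% and 16.9% higher. The part of these marker differences in the results for Mmp2, Mmp3 and Mmp14 was not tested.

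**Figure D3:**
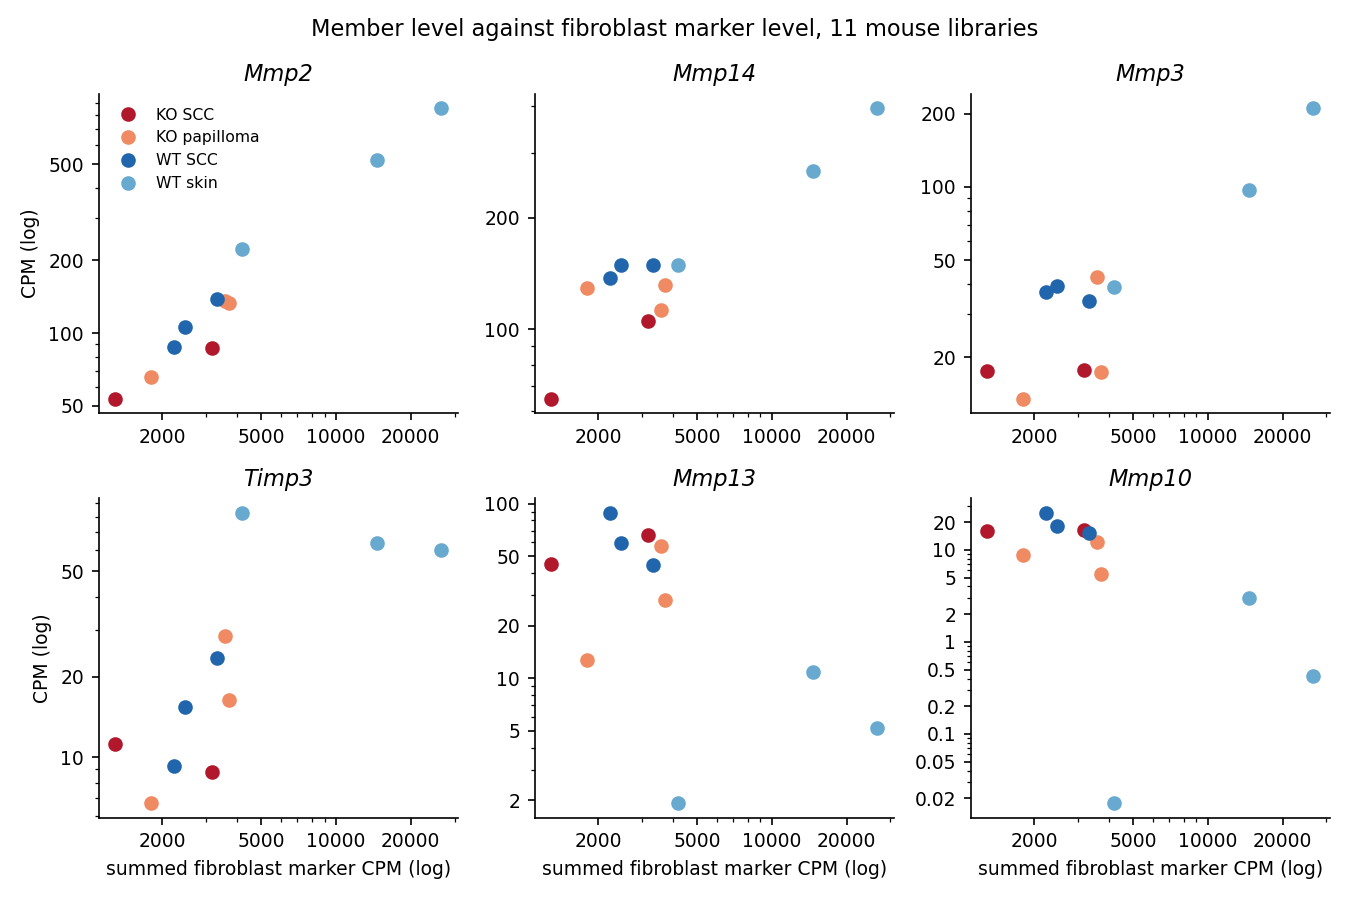
CPM of 6 members (y axis, log) against the summed CPM of 9 fibroblast markers (x axis, log), with 1 point per mouse library coloured by group. Mmp2 and Mmp14 are highest in the 2 skin libraries with marker sums of 26589 and 14583 CPM, while Timp3 is highest in the skin library with 4175 CPM and Mmp13 and Mmp10 are low in all 3 skin libraries.

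Timp1, the secreted inhibitor that is readily induced by cytokines, had 12.8 and 16.4 CPM in KO SCC, 23.1, 19.2 and 14.1 CPM in KO papilloma, 28.4, 21.6 and 28.0 CPM in WT SCC, and 10.9, 11.8 and 12.7 CPM in WT skin. WT SCC was 2.20-fold above WT skin, with a log2 fold change of 1.14 ± 0.20 (adjusted p = 0.00113) that held in every alternative run. In KO papilloma the log2 fold change was 0.67 ± 0.20 (adjusted p = 0.0199), and the call was lost without WT skin replicate 1 or 2 or KO papilloma replicate 1 (adjusted p = 0.0580, 0.0542 and 0.0841) and with no scaling beyond library totals (0.27, adjusted p = 0.278). In KO SCC it was 0.30 ± 0.22 (adjusted p = 0.273), with a sign that turned to -0.20 with no scaling beyond library totals.

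Mmp9, a gelatinase carried by neutrophils, macrophages and some tumour cells, had 11.6 and 18.4 CPM in KO SCC, 44.3, 11.9952 and 9.54 CPM in KO papilloma, 16.8, 19.3 and 21.9 CPM in WT SCC, and 27.9, 17.02 and 25.1 CPM in WT skin. All groups overlapped, and KO papilloma replicate 1 was the highest library of all. No difference from WT skin passed the threshold, with log2 fold changes of -0.64 ± 0.55, -0.09 ± 0.48 and -0.27 ± 0.48 in KO SCC, KO papilloma and WT SCC. Without KO papilloma replicate 1 the KO papilloma difference was -1.12 (adjusted p = 0.0114).

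Mmp1a, one of the mouse counterparts of MMP1, had 7 and 19 counts in KO SCC, 65, 9 and 21 in KO papilloma, 22, 1 and 12 in WT SCC, and 0, 7 and 0 in WT skin. At these counts the fitted log2 fold change of KO papilloma against WT skin, 4.05 ± 1.46 (adjusted p = 0.0462), rested on single libraries. The call was lost without KO papilloma replicate 1 (adjusted p = 0.172) or 3 (0.0651), without WT skin replicate 1 (0.0954) or 3 (0.0843), and with no scaling beyond library totals (0.0645). Nor was it made with the replicate block or in a fit of the 2 groups alone. Against WT skin, KO SCC (2.76 ± 1.51, adjusted p = 0.160) and WT SCC (2.62 ± 1.42, adjusted p = 0.158) did not pass. Mmp7, matrilysin, known from glandular epithelium, had 2 counts in KO SCC replicate 2 and in WT SCC replicate 3 and 0 in the other 9 libraries. The upper limit that 3 counts set in those libraries is 0.0627 to 0.0877 CPM.

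For the question of the study, KO SCC was set against WT SCC, both as SCC of the same treatment. Of the 9 tested members 1, Timp1, was lower and none was higher, while 7.87% of all tested genes passed the threshold, 4.48% higher and 3.38% lower. Timp1 was 1.78-fold lower in KO SCC, with a log2 fold change of -0.83 ± 0.22 (adjusted p = 0.0464), and the 2 KO libraries (12.8 and 16.4 CPM) lay below the 3 WT libraries (21.6 to 28.4 CPM). The call stood just inside the threshold and was lost without any 1 of the 5 libraries, with adjusted p from 0.0751 without WT SCC replicate 2 to 0.365 without KO SCC replicate 1. Without KO SCC replicate 2, the library with Y chromosome counts, the difference was -1.02 (adjusted p = 0.0944).

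The other members of this comparison did not pass the threshold. Mmp3, at 17.5 and 17.7 CPM in KO SCC against 33.9 to 39.1 CPM in WT SCC, had a log2 fold change of -1.06 ± 0.61 (adjusted p = 0.312). Mmp14 stood at -0.77 ± 0.33 (adjusted p = 0.181), Mmp2 at -0.66 ± 0.49 (adjusted p = 0.451) and Timp3 at -0.69 ± 0.51 (adjusted p = 0.441). In a fit of these 2 groups alone, without the WT skin and KO papilloma libraries, Mmp3 (adjusted p = 0.00102) and Mmp14 (adjusted p = 0.0225) also passed, both lower in KO SCC. The reason for this difference between the fits was not tested. Mmp13 at -0.21 ± 0.66, Mmp10 at -0.26 ± 0.91 and Mmp9 at -0.36 ± 0.54 had intervals that reach well to both sides of 0. The median log2 fold change of the 9 members was -0.66, against -0.01 over all tested genes. Fibroblast markers had a median of -0.49 here, with 1 of 9 lower and none higher. The 1 call, Pdgfra (log2 -1.08, adjusted p = 0.0497), was lost with RLE factors (adjusted p = 0.0554) and the replicate block (0.129). It was also lost without KO SCC replicate 2 (log2 -1.34). The marker sum was 1293 and 3165 CPM in KO SCC against 2240, 2465 and 3330 CPM in WT SCC. The part of the fibroblast markers in the members' values was not tested.

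Between KO SCC and KO papilloma none of the 9 tested members passed, and 0.286% of all genes did. The members' log2 fold changes ran from -1.29 ± 1.44 (Mmp1a) to 0.90 ± 0.90 (Mmp10). At an unadjusted p under 0.05 none of the 9 passed either, and DESeq2, which gave no adjusted p for Mmp1a, called none of the other 8. Between KO papilloma and WT SCC none passed, with 5.25% of all genes called. There Timp1, at -0.47 ± 0.20, was the 1 member with an unadjusted p under 0.05 (adjusted p = 0.217), and DESeq2 called none. The stromelysin Mmp10 was lower in KO papilloma (5.50 to 12.04 CPM) than in WT SCC (15.3 to 25.4 CPM) with no overlap, but its log2 fold change of -1.16 ± 0.82 did not pass (adjusted p = 0.493).

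In A431 cells, recovered from xenografts with mouse cells depleted, 8 of the 9 tested members passed the threshold between KO and control, 2 higher and 6 lower. Here 47.6% of all 18090 tested genes passed, 23.1% higher and 24.5% lower, and 8.15% passed with a change of at least 2-fold. For all 9 tested members the KO and control libraries did not overlap, as for 55.0% of tested genes. Among the members MMP1 and MMP9 reached 2-fold, in opposite directions.

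**Figure D4:**
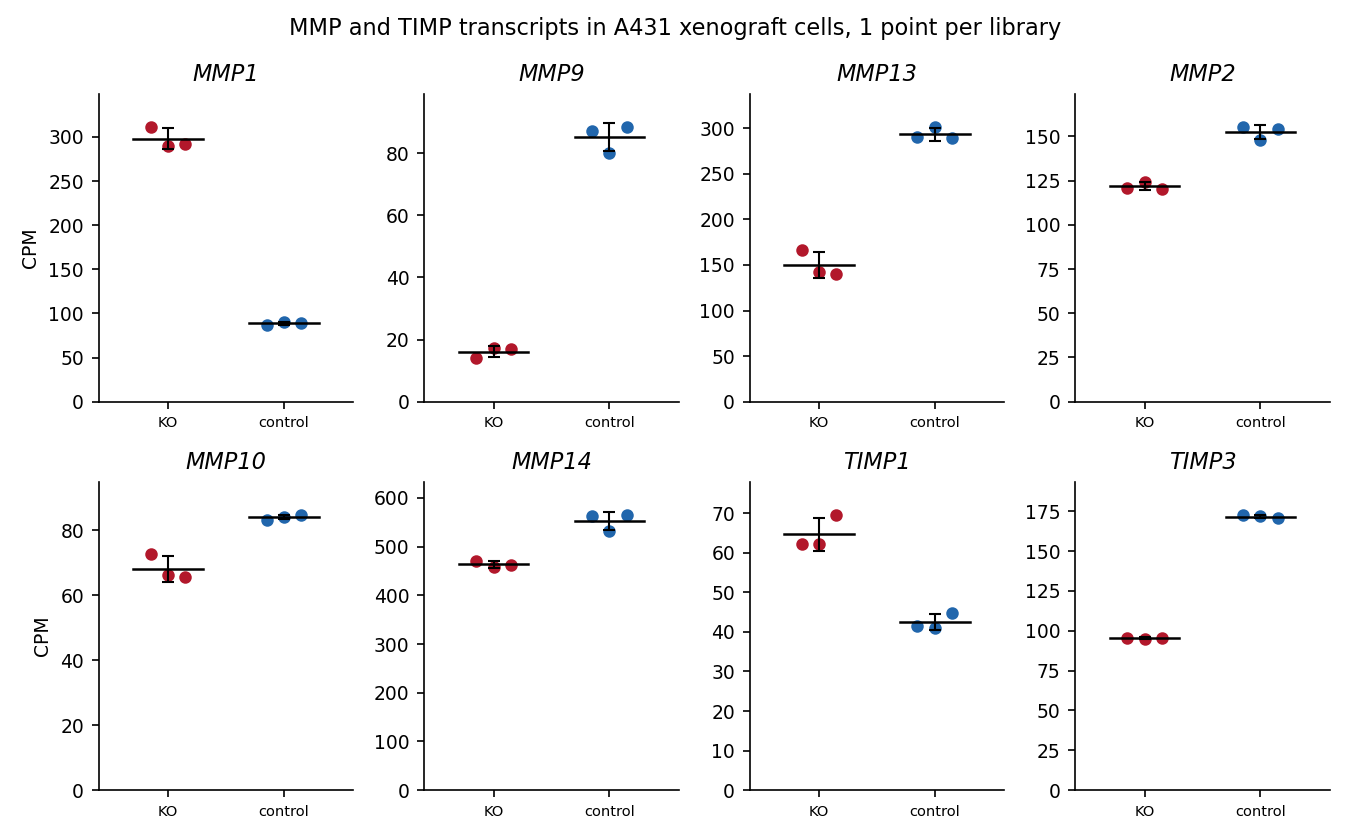
CPM of 8 members in the 6 A431 libraries, with 1 point per library and bars at the mean ± SD (n = 3 each), KO left of control. MMP1 and TIMP1 are higher in all 3 KO libraries than in any control library, and MMP9, MMP13, MMP2, MMP10, MMP14 and TIMP3 are lower in all 3.

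The interstitial collagenase MMP1 had 312, 290 and 292 CPM in A431 KO against 86.8, 90.4 and 89.6 CPM in A431 control libraries. The groups were far apart and each was tight. The log2 fold change was 1.74 ± 0.05, or 3.35-fold (adjusted p = 1.5e-14), and 98.0% of tested genes had a lower one. MMP9 had 14.001, 17.3 and 16.9 CPM in KO against 87.1, 80.2 and 88.6 CPM in control. It was 5.32-fold lower, with a log2 fold change of -2.41 ± 0.07 (adjusted p = 5.19e-14), and 0.321% of tested genes had a lower one.

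The collagenase MMP13 had 166, 142 and 141 CPM in KO against 290, 302 and 289 CPM in control, with a log2 fold change of -0.97 ± 0.06 (adjusted p = 4.08e-10). The 2 collagenases thus moved in opposite directions. TIMP3 had 95.7, 94.8 and 95.6 CPM in KO against 173, 172 and 171 CPM in control, with a log2 fold change of -0.85 ± 0.04 (adjusted p = 6.29e-11). TIMP1 had 62.1, 62.3 and 69.6 CPM in KO against 41.5, 41.1 and 44.8 CPM in control, with a log2 fold change of 0.61 ± 0.06 (adjusted p = 1.89e-07). The 2 inhibitors likewise moved in opposite directions.

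The remaining members moved little. MMP2 had 121, 124 and 120 CPM in KO against 156, 148 and 154 CPM in control (log2 -0.33 ± 0.05, adjusted p = 1.32e-05), MMP10 had 72.7, 66.2 and 65.7 CPM against 83.4, 84.1 and 84.8 CPM (log2 -0.30 ± 0.05, adjusted p = 0.000111), and MMP14 had 471, 458 and 462 CPM against 562, 532 and 565 CPM (log2 -0.25 ± 0.04, adjusted p = 8.29e-05). All 3 were lower in every KO library. MMP7 had 0.874, 1.14 and 0.830 CPM in KO against 0.631, 0.814 and 0.749 CPM in control and did not pass (log2 0.36 ± 0.27, adjusted p = 0.297). MMP3 had 20, 21 and 6 counts in KO against 6, 11 and 6 counts in control, too few for the filter. These A431 values cannot be set against each other between genes, because no human lengths were used.

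**Figure D5:**
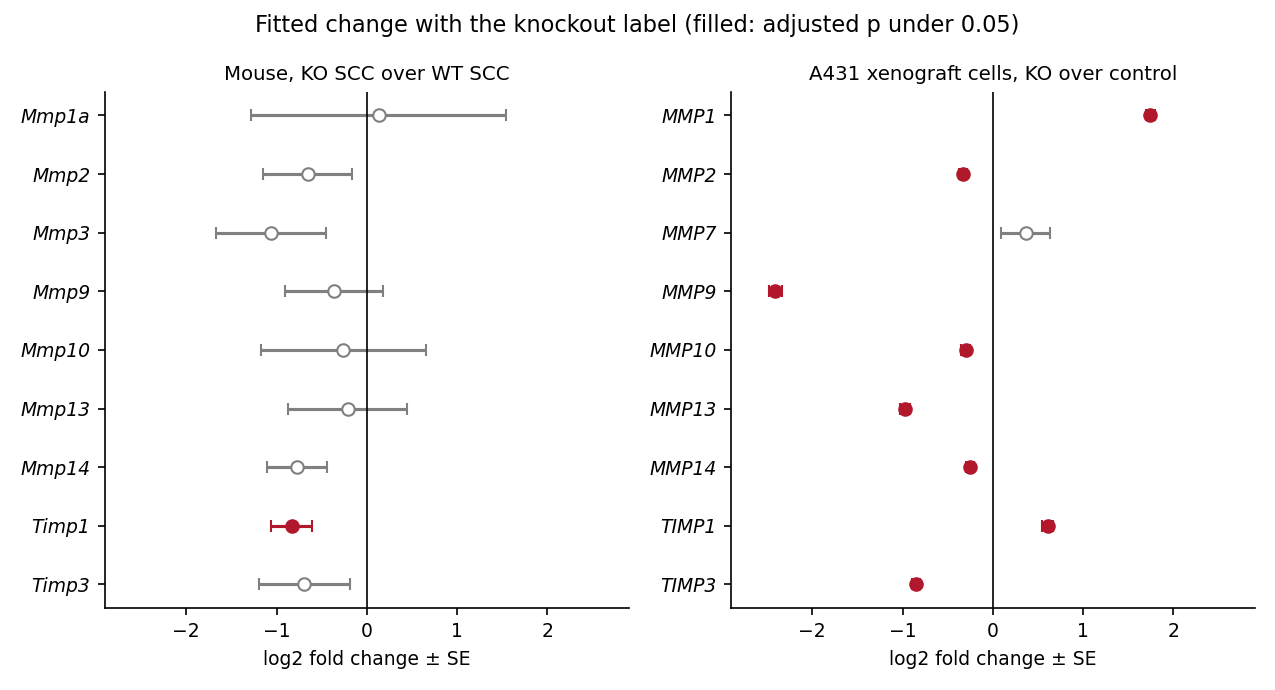
Fitted log2 fold change ± SE of the 9 tested members in mouse (KO SCC over WT SCC, left) and A431 (KO over control, right), filled where the adjusted p was under 0.05. Of the mouse members Timp1 alone is filled, at -0.83, while in A431 the error bars are much shorter and TIMP1, at 0.61, lies on the other side of 0.

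Human markers of other cell types were low in the A431 libraries. The host cells are of mouse, so these human genes cannot show how much host tissue remained. Fibroblast markers summed to 79.3 to 90.7 CPM in KO and 128 to 129 CPM in control, mostly from COL1A1 and LUM, while COL1A2, THY1 and POSTN were at 0 in all 3 control libraries. Macrophage markers reached at most 7.42 CPM in KO and 7.26 CPM in control. Of the 5 fibroblast markers tested, 4 were lower in KO and 1 was higher, against 24.5% and 23.1% of all tested genes. Their part in the results was not tested.

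Genes that act on MMPs differed between comparisons. The other MMP inhibitors tested were Timp2, which also helps Mmp14 activate Mmp2, Timp4 and Reck, a membrane-anchored inhibitor. All 3 were lower in each lesion group than in WT skin. Over all genes 24.3% were lower in KO SCC, 22.4% in KO papilloma and 23.6% in WT SCC. Timp2 had a mean of 95.1 ± 31.5 CPM in KO SCC, 114 ± 25.9 CPM in KO papilloma, 102 ± 24.9 CPM in WT SCC and 631 ± 251 CPM in WT skin (SD, n = 2, 3, 3 and 3). Reck stood at 1.39 ± 0.664, 1.99 ± 1.43, 2.47 ± 0.653 and 41.3 ± 10.8 CPM in the same groups. Between KO SCC and WT SCC none of these 3 passed, with log2 fold changes from -0.82 (Reck) to -0.10 (Timp2). In A431 all 3 were higher in KO, by 0.76 ± 0.08 for TIMP2, 1.48 ± 0.41 for TIMP4 and 0.35 ± 0.10 for RECK on the log2 scale. Over all tested genes 23.1% were higher there.

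Plasminogen activators open latent MMPs through plasmin. In KO SCC against WT SCC, 2 of 9 tested genes of this list were higher and 1 was lower, against 4.48% and 3.38% of all genes. Serpinb2, an inhibitor of plasminogen activators, had a mean of 582 ± 129 CPM in KO SCC and 29.2 ± 6.41 CPM in WT SCC, 19.9-fold higher (log2 4.32 ± 0.27, adjusted p = 1.64e-05), and the call held in every alternative run. Plaur, the receptor of urokinase, was higher by 1.01 ± 0.25 and Plau, urokinase itself, was lower at -0.91 ± 0.25 on the log2 scale (adjusted p = 0.0357 and 0.0486). Both calls were lost without any 1 of the 5 libraries (adjusted p = 0.0544 to 0.405). In A431, SERPINB2 was lower in KO at -0.85 ± 0.06, and PLAU and ST14 were higher at 0.41 ± 0.04 and 0.52 ± 0.04. In total 5 of 9 were higher and 3 lower there, against 23.1% and 24.5% of all tested genes.

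The list of factors known to act on MMP promoters held 12 genes, of which 11 code for AP-1 or ETS proteins and 1, Runx2, for a Runt-domain factor that acts on Mmp13. In KO SCC against WT SCC, 4 of the 11 were lower and none was higher, against 3.38% of all genes lower. They were Jun (log2 -0.82 ± 0.19), Jund (-0.79 ± 0.18), Etv5 (-0.81 ± 0.20) and Fos (-1.27 ± 0.33), and Runx2 was lower too (-1.69 ± 0.25). The median of the 12 was -0.59. The calls of Fos and Etv5 were lost without any 1 of the 5 libraries, those of Jun and Jund without any of 4 of them, and that of Runx2 without KO SCC replicate 1 (adjusted p = 0.0578). Without KO SCC replicate 2 the adjusted p was 0.196 for Fos, 0.177 for Etv5, 0.0734 for Jun and 0.109 for Jund. In A431 all 12 passed, 9 lower, RUNX2 among them, and 3 higher in KO, against 24.5% and 23.1% of all tested genes. FOS stood at -1.11 ± 0.04, FOSL2 at -0.81 ± 0.05, FOSB at -0.82 ± 0.05 and ETV4 at 1.05 ± 0.06. Against WT skin the list was mixed. Of the 12 genes, 3 were higher and 4 lower in KO SCC, 3 and 2 in KO papilloma, and 5 and 2 in WT SCC. Over all genes, 20.5%, 17.1% and 16.9% were higher and 24.3%, 22.4% and 23.6% lower. Among the higher ones, the AP-1 member Fosl1 had 29.6 ± 2.32 CPM in KO SCC, 28.4 ± 6.57 CPM in KO papilloma, 29.2 ± 3.78 CPM in WT SCC and 1.97 ± 0.265 CPM in WT skin. Of 12 cytokines and growth factors that induce MMPs, 1, Ereg, was higher in KO SCC than in WT SCC (log2 1.19, adjusted p = 0.0178). Another, Tgfb1, was lower (log2 -0.89, adjusted p = 0.0200). Over all genes 4.48% were higher and 3.38% lower there. Both calls were lost with the replicate block (adjusted p = 0.0583 and 0.0693) and without KO SCC replicate 2 (log2 0.84 and -0.84).

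Among MMPs outside the chosen 10, none of 13 tested passed between KO SCC and WT SCC, where 7.87% of all genes did. Mmp12, the macrophage elastase, came nearest, with 15.2 ± 7.87 CPM in KO SCC and 65.0 ± 13.9 CPM in WT SCC (log2 -2.10 ± 0.62, adjusted p = 0.0625). Macrophage markers summed to 240 to 295 CPM in KO SCC and 480 to 641 CPM in WT SCC, and their part was not tested. Of the proteases of the ADAM and ADAMTS families, which shed proteins from cells and trim proteoglycans, 3 of 17 were lower, namely Adam33, Adamts5 and Adamts15, against 3.38% of all genes. The call of Adamts5 was lost without any 1 of the 5 libraries, that of Adamts15 without any of 4 of them and that of Adam33 without KO SCC replicate 1 (adjusted p = 0.0966). Without KO SCC replicate 2 the adjusted p was 0.0835 for Adamts5 and 0.0899 for Adamts15. Of 16 genes listed as matrix substrates of MMPs, none passed between KO SCC and WT SCC. In A431, 5 of 15 tested were higher and 7 lower in KO, with a median log2 fold change of -0.02. Over all tested genes 23.1% were higher and 24.5% lower there. The matrix protein FN1, fibronectin, had 58.5 ± 1.505 CPM in A431 KO and 419 ± 19.2 CPM in control (log2 -2.84 ± 0.05). TNC, tenascin-C, was higher in KO at 0.89 ± 0.04.

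Pairs of members were compared by their Pearson r in log2 CPM across the 11 mouse libraries, as a description in which all pairs share the groups and libraries. Mmp10 and Mmp13 had an r of 0.946. Mmp2 had 0.917 with Mmp14, 0.910 with Mmp3 and 0.858 with Timp3, and Mmp3 had 0.761 with Timp3. Mmp9 had no r above 0.594 with another member. Among 13866 other genes with an average log2 CPM of at least 1, Mmp13 was most like Itga6 (r = 0.962), an integrin subunit of basal keratinocytes, and Aknad1. Mmp10 was most like Nod2 (r = 0.977), a sensor of bacterial wall fragments, and 2010005H15Rik. Mmp2 was most like Aebp1 (r = 0.989) and B3gnt9, Mmp14 like Fkbp10 and Creb3l1, and Mmp3 like Pdgfc, a growth factor, and Pdgfrl. Timp3 was most like Pgm5 and Cavin2, and Timp1 like Fmnl3 and Cpd. For Mmp9 the closest, Cnn1 and Rtn3, had lower r of 0.853 and 0.846, and for Mmp1a they were Aldh3b3 and Dnd1.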

How the data were processed

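RNA from 17 libraries was made into stranded mRNA libraries, as the labels' protocols state. The deposited values are whole-number counts per gene, made by the authors without normalization, with 1 table per species. The builds mm10 and hg38 and the tools HISAT2, StringTie and DESeq are named per the submitters' processing notes. No counting rule or strand setting is given in the sources used here. Library totals were 34.4 to 47.9 M counts in mouse and 41.2 to 53.5 M in A431, and features without a name (0.115 to 0.496% of counts) were left out. Upper limits for a gene at 0 used 3 counts and cover counting error only.

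A model with 4 groups held the 11 mouse libraries, and another the 6 A431 libraries, in edgeR 4.0.16 in R 4.3.3 (default filter on low counts, TMM, quasi-likelihood test, two-sided). Benjamini-Hochberg adjustment was over all genes of a comparison, at 0.05. Log2 fold changes are given with their SE. The biological coefficient of variation was 36.6% in mouse and 6.11% in A431. Where nothing says that replicates are separate animals or cultures, p-values reflect only how these libraries vary, which may be technical. Alternatives were RLE factors, no filter, DESeq2 1.42.0, the replicate number as a block, a fit of the 2 groups alone, leaving out each replicate, and no scaling, which was added after the data were seen. The test was checked on simulated counts. Positions are from GENCODE M21 and promoters from RefSeq (GRCm38.p6), matched by symbol for 8 of 10 mouse members.

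The members and lists were chosen with earlier results of these data known. All tested members were read in each comparison, but not every value is given. Of the related lists up to 4 genes by p are named, not in every comparison, with the 2 genes most like each tested member. Fos, the fifth factor called between KO SCC and WT SCC, was named after its value was seen.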

Additional observations from a re-analysis of the deposited data

Results flagged for a closer look

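The inhibitor Timp1 had opposite directions with the knockout label in the 2 systems. In mouse it was lower in KO SCC than in WT SCC, with a log2 fold change of -0.83. The libraries did not overlap, but neither did those of Mmp2, Mmp3 and Mmp14, which did not pass in the main fit. In A431 cells TIMP1 was higher in KO than in control libraries, with a log2 fold change of 0.61, without overlap, as for 55.0% of tested genes. The difference between the 2 systems was not tested, and the mouse call was lost without any 1 of its 5 libraries.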

How the results depend on the processing

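In KO SCC against WT SCC 1 member was called. This count became 0 with RLE factors and with the replicate block, and 3 in a fit of the 2 groups alone. It was 0 without any 1 replicate. Over all genes that comparison had 1760 calls, against 2776 with no scaling, 798 with the replicate block, 4160 with the 2 groups alone and 3466 with DESeq2 (302 to 975 without 1 replicate). KO SCC against KO papilloma had 64 calls, against 611 with no filter, 1 with the replicate block and 941 with DESeq2 (0 to 84 without 1 replicate). KO papilloma against WT SCC had 1175, against 1854 with no filter, 1797 with the 2 groups alone and 2232 with DESeq2 (478 to 1100 without 1 replicate), and 1 member, Mmp10, was called with the 2 groups alone. Without 1 replicate, the members called were 5 to 7 in WT SCC, 5 to 8 in KO papilloma and 5 to 7 in KO SCC against WT skin, and 8 to 9 in A431. The matching counts over all genes were 6755 to 9585, 7239 to 8856, 5884 to 9891 and 7435 to 9564. No scaling moved the median of all genes by -0.12 to -0.51 in the mouse comparisons, and its KO SCC against WT SCC calls were 537 higher and 2239 lower, against 1003 and 757. The cause of these shifts was not tested.

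Signs that reversed were all of members not past the threshold. With no scaling they were Mmp1a in KO SCC against WT SCC (-0.089), Timp1 in KO SCC against WT skin (-0.20), and Mmp2 (-0.14) and Timp3 (-0.072) in KO papilloma against WT SCC. With the replicate block they were Mmp1a (-0.013) in the first and Mmp2 (-0.14) and Mmp9 (-0.0068) in the last of these comparisons. Without 1 replicate, in KO SCC against WT SCC, Mmp1a ranged from -0.60 to 1.17 and Mmp13 from -0.52 to 0.092. In KO papilloma against WT skin Mmp9 ranged from -1.12 to 0.27. In KO SCC against KO papilloma Mmp3 ranged from -0.76 to 0.19 and Mmp9 from -0.92 to 0.48. In KO papilloma against WT SCC Mmp2 ranged from -0.15 to 0.28, Mmp9 from -0.84 to 0.54 and Timp3 from -0.47 to 0.48. Of all alternative values for members, 653 kept direction and side of the threshold, 33 lost it, 6 gained it and 23 reversed. With the replicate block the call of Mmp14 in WT SCC against WT skin was lost (adjusted p = 0.0579). Whether same-numbered libraries pair is not stated in the labels. The r of deviations from the group means was -0.41 to 0.17 for same-numbered libraries in mouse and -0.39 to 0.44 for the others. In A431 it was -0.03 to 0.01 and -0.02 to 0.02. With 2 or 3 libraries per group these values cannot decide whether the libraries pair.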
